A study of Mus musculus with 69 samples.

Results

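The nuclear-encoded subunits of oxidative phosphorylation were followed through RNA-seq libraries of mouse T cells with all alleles of the transcription factors STAT5A and STAT5B or with 1 of the 4 left. The genes were taken by their names (Nduf, Sdh, Uqcr, Cox4 to Cox8 and Atp5 symbols, without pseudogenes and Ndufaf assembly factors), which gave 84 of the 24309 genes in the count tables. Of these, 35 belong to complex I, 4 to complex II, 8 to complex III, 20 to complex IV and 15 to complex V, and the other 2, Atp5s and Atp5sl, are not subunits and were left out of sums over subunits. The subunits that mitochondrial DNA encodes were not analysed here.

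Oxidative phosphorylation takes place in the inner mitochondrial membrane. Complex I passes electrons from NADH, and complex II from succinate, to ubiquinone, complex III hands them to cytochrome c and complex IV to oxygen, and the protons pumped on the way drive complex V, the ATP synthase. In T cells the IL-2 family cytokines IL-7 and IL-15 act through the kinases JAK1 and JAK3 and through STAT5A and STAT5B, and memory CD8+ T cells are known for their reliance on mitochondrial respiration.

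Cells came from pooled lymph nodes and spleen of mice with 3 genotypes: Stat5a+/+ Stat5b+/+ (WT), Stat5a-/- Stat5b+/- (AAB, with 1 allele of Stat5b left) and Stat5a+/- Stat5b-/- (BBA, with 1 allele of Stat5a left). The deletions are germline and so present in every cell of the animal, and the mice were adults of both sexes. Sorted CD8+ cells were naive (Tnv, CD44 low CD62L high), central memory (Tcm, CD44 high CD62L high) or effector memory (Tem, CD44 high CD62L low), each without cytokine or with IL-15, and Tnv and Tcm also with IL-7, which gave 48 libraries in 24 groups of 2. Naive CD4+ cells without cytokine or with IL-7 gave 15 libraries, 2 or 3 per group, and 4 further libraries, labelled in vitro activated CD8+ T cells of AAB mice, carried a retrovirus for constitutively active STAT5A (CA-STAT5A) or an empty control vector, 2 each. Cells with IL-7 or IL-15 were cultured overnight, and whether those without cytokine were cultured is unclear. The study's methods describe the replicates as biological ones from different mice, while no label ties a library to a mouse, so libraries of different groups may come from the same mouse.

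Library depth ran from 5926139 to 25612758 counts in the CD8+ table, from 6705004 to 34118295 in the CD4+ table and from 11020965 to 16516525 in the retrovirus table. The targeted genes followed the labels: Stat5a was at or below 4.90 CPM (counts scaled to a common library size) in every CD8+ AAB library against 32.5 to 107.9 CPM in WT, and Stat5b at 48.9 to 94.1 CPM in BBA against 164.0 to 353 CPM in WT. Some libraries stood apart. WT Tnv with IL-15, replicate 2, held 236.9 CPM of Cd4, at most 11.9 CPM in the other CD8+ libraries. The retrovirus libraries held 1.71 to 4.73 CPM of Cd8a and Cd8b1 together, against at least 1218 CPM in every CD8+ library, and they held 2373 to 2670 CPM of 5 NK cell markers, against at most 663 CPM, so they are called here by their labels only. In bulk libraries fewer cells of a type and less RNA per cell cannot be told apart.

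Promoter sequence is shown for the pair of ATP synthase genes whose levels moved most in the results below, Atp5g1 and Atp5b, for Atp5g3, which encodes the same mature c-ring protein as Atp5g1, and for Uqcr11 of complex III, the called member whose promoter holds an ETS-type motif. Each line gives 100 bases of RefSeq promoter (GRCm38.p6), 5′ to 3′ on the strand of the gene, that end at or at most 5 bases inside the first annotated exon, at chr11:96075666-96075765 (minus strand) for Atp5g1, chr10:128083178-128083277 (plus) for Atp5b, chr2:73911327-73911426 (minus) for Atp5g3 and chr10:80406826-80406925 (minus) for Uqcr11. Capitals mark a match to CACGTG (the E-box that MYC binds) or CCGGAAGT (an ETS-type site).
Atp5g1: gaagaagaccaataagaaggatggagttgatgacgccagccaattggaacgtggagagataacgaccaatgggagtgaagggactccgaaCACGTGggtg
Atp5b: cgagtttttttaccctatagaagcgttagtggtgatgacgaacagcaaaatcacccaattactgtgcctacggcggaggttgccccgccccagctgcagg
Atp5g3: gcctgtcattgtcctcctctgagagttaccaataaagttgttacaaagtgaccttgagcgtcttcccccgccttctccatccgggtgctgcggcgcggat
Uqcr11: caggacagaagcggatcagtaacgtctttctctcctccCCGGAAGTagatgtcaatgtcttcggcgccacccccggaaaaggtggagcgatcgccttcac

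RefSeq gave promoters of 300 bases for 69 of the 84 members, 75 promoters in all, among 32851 promoters. On either strand, CACGTG was in 12.0% of the members' promoters and 7.15% of all, the site of nuclear respiratory factor 1 (NRF1) in 24.0% and 4.6%, CCGGAAGT in 6.67% and 3.89%, and TTCNNNGAA, the core of a STAT5 site, in 8.0% and 8.3%. These matches are descriptions of the sequence, and no binding was measured here.

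The transcripts of the 82 subunits made up under 1% of counts in every library, and WT Tcm with IL-7 or IL-15 held the highest group means. In Tcm with IL-15 they took 0.814% and 0.711% of counts in the WT libraries, 0.719% and 0.672% in AAB and 0.584% and 0.553% in BBA. In Tcm with IL-7 they took 0.913% and 0.757% in WT, 0.678% and 0.708% in AAB and 0.673% and 0.655% in BBA. BBA lay below WT in both cultures, without overlap, while AAB overlapped WT with IL-15. In Tcm without cytokine the WT libraries, at 0.792% and 0.622%, overlapped both AAB (0.725% and 0.670%) and BBA (0.694% and 0.597%). Across the naive and Tem libraries the share lay between 0.517% and 0.728%, and across CD4+ libraries between 0.513% and 0.620%. In CD4+ cells with IL-7 BBA (0.5127% to 0.5546%) also lay below WT (0.5605% to 0.5714%) without overlap, with 3 libraries each.

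**Figure D1:**
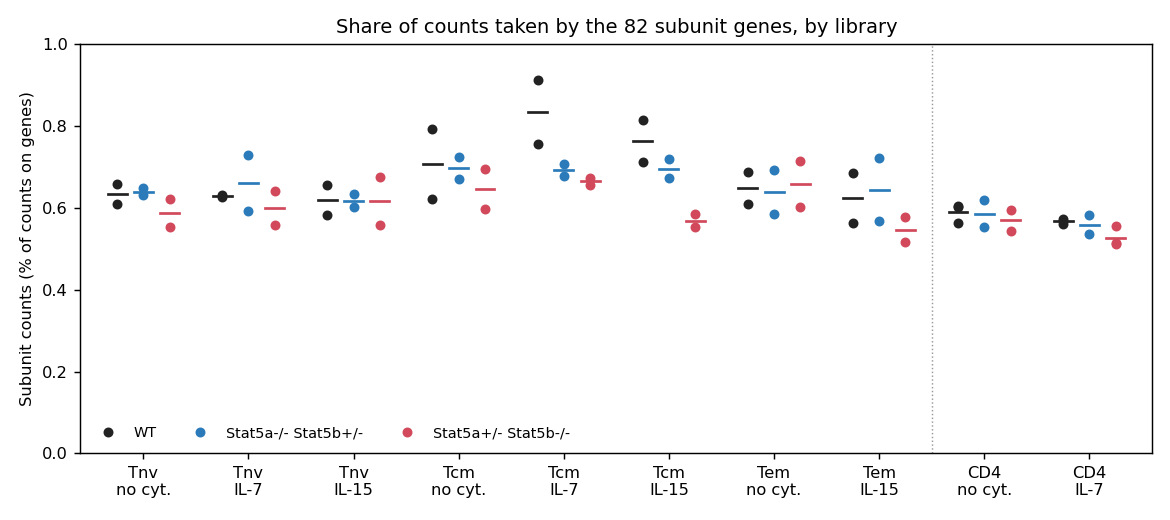
Share of gene counts taken by the 82 subunit genes (y axis, % of counts) in each CD8+ and CD4+ library (dots, coloured by genotype) by cell state and culture (x axis), with group means as bars. WT dots stand above BBA dots in Tcm with IL-7 or IL-15, while in most other cultures the genotypes overlap.

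Levels per length, in CPM per kb of merged exons, were ranked over the subunits. Merged exons take in every annotated exon of a gene, so these ranks and medians depend on the annotation. For Atp5e, 1756 merged bases gave 372 stretches of 50 bases. By CPM without the length, Atp5b stood above Cox6a1. In WT Tcm with IL-15 the median subunit of complex V stood at 79.2, of complex III at 54.6, of complex II at 46.0, of complex I at 34.8 and of complex IV at 30.6 CPM per kb over all 20 genes. Without 8 isoforms that were close to undetected the median of complex IV was 68.9 CPM per kb, below complex V alone. Cox6a1, a small subunit of complex IV, was the highest at 274 ± 7.6 CPM per kb (SD, n = 2), with Cox8a at 240 ± 22 and Atp5o, of the stalk that holds the ATP synthase still, at 228 ± 39. The Cox6a1 libraries lay above those of Cox8a and Atp5o, which overlapped each other. The length of Atp5o came from a gene record at chr16:91684398-91926982 with 530 merged exon bases. The RefSeq promoter of Atp5o, at chr16:91931581-91931880, lies apart from that record, so the rank of Atp5o is uncertain. In WT Tnv without cytokine Cox7a2l, a factor that joins complexes III and IV into supercomplexes, stood highest at 291 CPM per kb.

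The tissue isoforms of complex IV were close to undetected in T cells. Cox4i2, Cox6a2, Cox7b2, Cox8b and Cox8c each had at most 11 counts in any CD8+ library, Cox7a1 at most 24 and Cox6b2 at most 31, and Ndufa4l2, the hypoxia-induced relative of Ndufa4, at most 5. Their common partners Cox4i1, Cox6a1, Cox7a2, Cox7b, Cox8a and Cox6b1 were all well counted. Ndufs5 was listed at 0 in 45 of the 48 CD8+ libraries and at 1 in the rest. Of its 50-base words 21.7% also occur in the pseudogene BC002163, and whether its reads were lost in the authors' counting was not tested. These 9 genes did not pass the filter on low counts in Tcm with IL-15, nor did Atp5s, which left 74 members tested.

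The genotypes differed most in Tcm with IL-15, where STAT5B-deficient cells held less RNA of subunits from all 5 complexes. Of the 74 members tested, 26 were higher in WT than in BBA by more than 1.5-fold at an adjusted p under 0.05 (edgeR quasi-likelihood test, Benjamini-Hochberg over all genes) and 0 were lower, where the same limits called 11.8% of all 10098 genes higher and 11.9% lower, 23.7% in all. In the lower direction the adjusted p alone, by the same edgeR test, called 1 member (19.1% of all genes), DESeq2 with the fold limit called 0, and 59 members in either direction had an unadjusted p under 0.05 (49.5% of all genes). Without the fold limit 44 members were higher, against 20% of all genes. The median log2 fold change of the members was 0.50 and that of all genes -0.02. The WT and BBA libraries did not overlap, with WT higher, in 63 members, against 34.3% of all genes.

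Leaving out single libraries moved this count, and the share of all genes called without a library is not given here. It was 10 without WT replicate 1, of which 9 were among the 26, it was 42 without WT replicate 2 and 13 without BBA replicate 2, and the members' median stayed at 0.36 or above. Summed over the 7 markers of B cells, WT held 122 and 231 CPM and BBA 258 and 524 CPM, and over 6 memory and effector genes WT held 1607 and 1493 CPM and BBA 789 and 623 CPM, and over 7 myeloid markers WT held 25.9 and 18.3 and BBA 58.7 and 37.4 CPM. Their part in the result was not tested.

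Complex V showed the largest shift. Its 15 subunits together held 3541 and 3087 CPM in WT, 2737 and 2642 CPM in AAB and 2020 and 1942 CPM in BBA. Of them 7 were called higher in WT than in BBA, and 13 by adjusted p alone, with a median log2 fold change of 0.65. Atp5b, the catalytic beta subunit, stood at 921 and 840 CPM in WT, 626 and 647 CPM in AAB and 427 and 423 CPM in BBA. The 3 genotypes did not overlap for this gene, and WT exceeded BBA by 0.99 ± 0.09 (log2, SE; adjusted p = 0.00049, edgeR). Atp5d and Atp5e, further parts of the F1 head, were higher in WT by 0.74 and 0.90 on the log2 scale.

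The c ring, the rotor through which protons pass, is encoded by 3 genes with the same mature protein, and each was lower in BBA. Atp5g1 stood at 97.4 and 76.3 CPM in WT, 63.3 and 56.7 CPM in AAB and 40.0 and 31.3 CPM in BBA. Its log2 fold change of WT over BBA, 1.23 ± 0.16 (adjusted p = 0.00172, edgeR), was the largest among the members. Atp5g3, at 175 and 153 CPM in WT and 96.9 and 105 CPM in BBA, gave 0.65 (adjusted p = 0.00245, edgeR). Atp5g2, at 212 and 167 CPM in WT and 135 and 131 CPM in BBA, gave 0.46 (adjusted p = 0.0245, edgeR) and stayed under the fold limit. The differences between the 3 genes were not tested.

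In complex I the calls of the main fit fell on accessory subunits. Of the 27 accessory subunits tested 11 were called higher in WT than in BBA, with a median log2 fold change of 0.59, and of the 7 core subunits, which carry the flavin and the iron-sulfur clusters, 0 were called (edgeR; 3 by adjusted p alone, Ndufs1, Ndufs8 and Ndufv1) with a median of 0.35. DESeq2, and its size factors in edgeR, also called the core subunit Ndufv1 (log2 0.60 in both). The contrast between accessory and core subunits was not tested. Ndufa3 stood at 78.6 and 47.7 CPM in WT and 38.6 and 25.5 CPM in BBA (0.93 ± 0.28 on the log2 scale). The accessory subunit Ndufa6 stood at 68.5 and 57.0 CPM in WT and 58.9 and 65.8 CPM in BBA (log2 -0.05).

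In complex II, which also serves the citric acid cycle, none of 4 genes passed the fold limit, though Sdhb, Sdhc and Sdhd passed the adjusted p. Sdha, the flavoprotein that oxidises succinate, stood at 270 and 256 CPM in WT and 243 and 233 CPM in BBA, with a log2 fold change of 0.09 ± 0.08 (adjusted p = 0.42, edgeR). Sdhb, the iron-sulfur partner, stood at 85.8 and 75.6 CPM in WT and 56.4 and 56.1 CPM in BBA (0.46, adjusted p = 0.0102). The membrane anchors Sdhc (0.53) and Sdhd (0.39) were also higher in WT.

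In complex III, 3 of 8 genes were called, all of them small accessory subunits: Uqcrq, Uqcr11 and Uqcr10. Uqcrq stood at 75.1 and 72.9 CPM in WT, 59.3 and 56.2 CPM in AAB and 36.5 and 36.9 CPM in BBA, so the genotypes did not overlap and the replicates lay close (0.95 ± 0.09, adjusted p = 0.000519, edgeR). Uqcr11, at 45.4 and 32.9 CPM in WT and 20.4 and 20.0 CPM in BBA, gave 0.90. The hinge protein Uqcrh and the Rieske iron-sulfur protein Uqcrfs1 gave 0.04 and 0.16 and were not called.

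In complex IV, 5 of the 12 genes tested were called higher in WT: Cox7b, Cox6c, Cox6a1, Cox5a and Ndufa4. Cox7b stood at 102 and 64.4 CPM in WT and 45.5 and 37.5 CPM in BBA (0.95 ± 0.24), and Cox6a1 at 196 and 189 CPM in WT and 114 and 113 CPM in BBA (0.70 ± 0.08). Cox4i1, the ubiquitous form of the subunit that senses ATP, stood at 258 and 232 CPM in WT and 224 and 218 CPM in BBA (log2 0.09), and its relative Cox4i2 was at or below 0.314 CPM in these libraries. Cox6b1 (0.52), Cox7a2 (0.29) and Cox8a (0.24) were not called.

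Cox7a2l ran the other way. It stood at 240 and 245 CPM in WT, 311 and 282 CPM in AAB and 301 and 325 CPM in BBA, and WT over BBA gave -0.43 ± 0.09 (adjusted p = 0.0102, edgeR). It was the 1 member with an adjusted p under 0.05 that was lower in WT, under the fold limit. WT lay below both deficient genotypes without overlap.

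**Figure D2:**
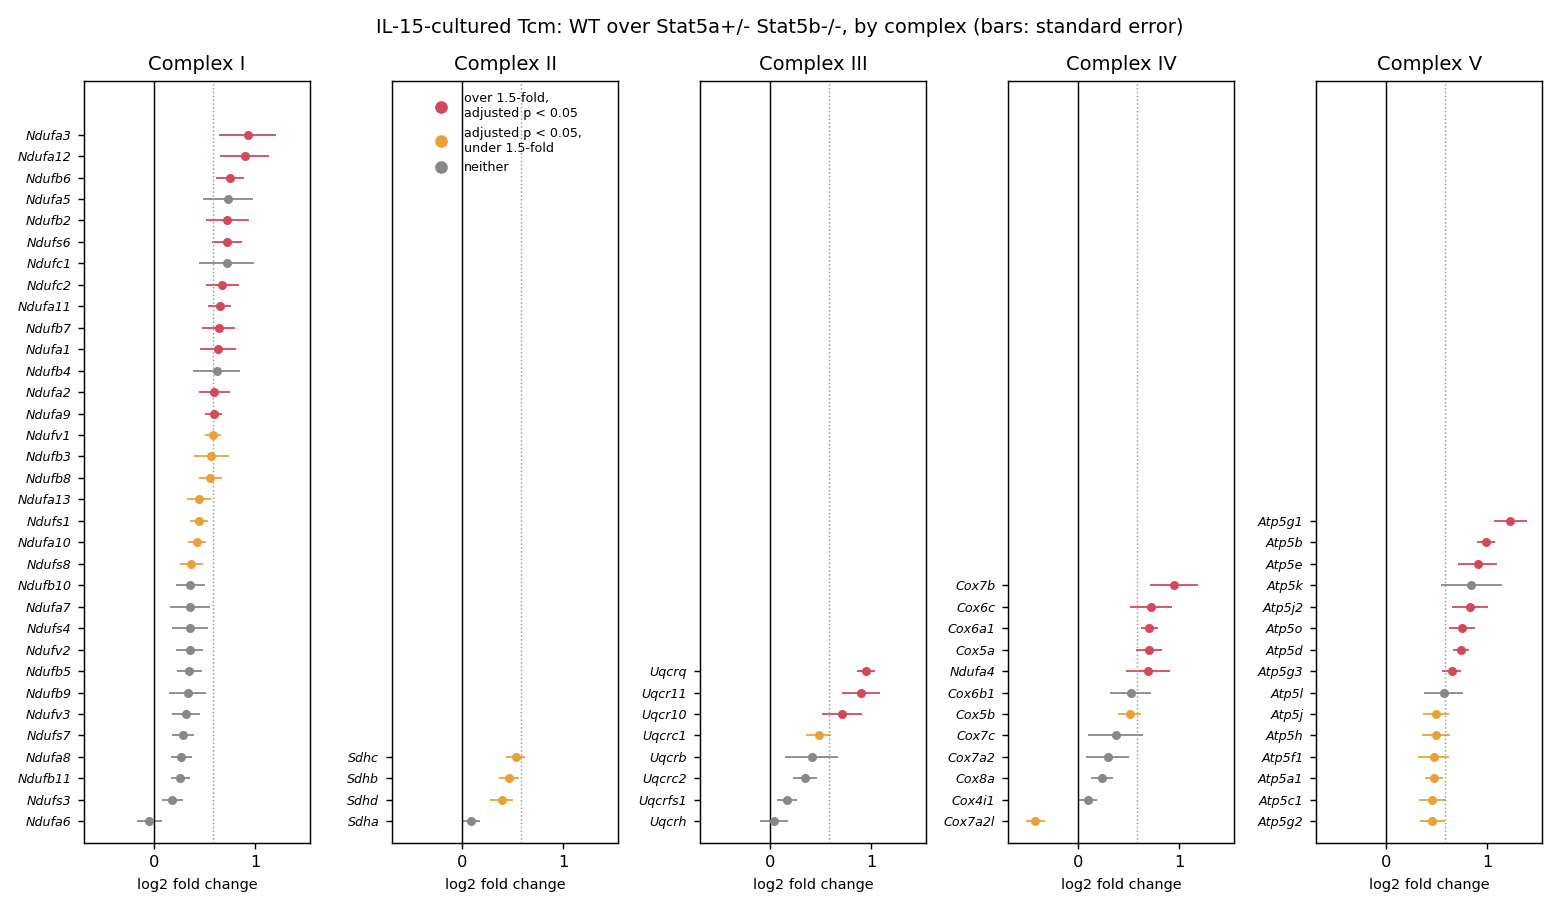
log2 fold change of WT over Stat5a+/- Stat5b-/- in IL-15-cultured Tcm (x axis) for the subunits tested and shown, in 1 panel per complex, with standard errors as bars, the 1.5-fold limit as a dotted line and colours for the calls. Nearly all points lie right of 0, Atp5g1 at 1.23 is farthest out, and Cox7a2l at -0.43 is the only point left of 0 with an adjusted p under 0.05, under the fold limit.

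STAT5A-deficient Tcm with IL-15 had a mean subunit share of 0.6954% of counts, between WT (0.7627%) and BBA (0.5685%), with libraries that overlapped WT. The calls of members in both comparisons of AAB were below or near the share of all genes. WT over AAB gave 0 called members with edgeR and 0 with DESeq2, where 4.27% of all genes were called, and 10 members had an unadjusted p under 0.05 (24.9% of all genes). The median log2 fold change was 0.14, and Atp5b (0.42), Atp5d (0.40) and Cox6a1 (0.36) passed the adjusted p under the fold limit (4.29% of all genes passed it in this direction). The 2 deficient genotypes were also compared directly, in the same libraries. In AAB over BBA 3 members were called higher, Atp5g1 (0.74 ± 0.16, adjusted p = 0.0393), Uqcrq (0.64 ± 0.09, adjusted p = 0.0121) and Atp5o (0.59 ± 0.13, adjusted p = 0.041, all edgeR), where 3.16% of all genes were called higher and 5.99% in either direction.

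The median over the members in AAB over BBA was 0.34, and 41 had an unadjusted p under 0.05 (29.5% of all genes). With the replicate number as a block, which these libraries bear out as a pairing, 6 members were called, the further ones being Ndufa12, Ndufa3 and Ndufc1. The share of all genes called under the block is not given here. The calls depended on single libraries. Without AAB replicate 1, AAB replicate 2 or BBA replicate 2 the count was 0, and without BBA replicate 1 it was 1. The 3 comparisons share their libraries, so their results are not separate evidence.

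In Tcm with IL-7 the WT libraries were again the highest, but they were far apart. Atp5g1 stood at 96.5 and 74.6 CPM in WT, 54.9 and 56.1 CPM in AAB and 42.6 and 38.1 CPM in BBA. It was the 1 member called higher in WT than in BBA (1.01 ± 0.16, adjusted p = 0.0353, edgeR), where 1.44% of all genes were called higher and 3.09% in either direction, and 36 members had an unadjusted p under 0.05 (24.8% of all genes), with a median log2 fold change of 0.42. DESeq2 called 11 members, with no share of all genes given here. WT over AAB gave 0 called members with edgeR (0.0598% of all genes), 1 with DESeq2, Atp5d, and 23 at an unadjusted p under 0.05 (11.3%), with a median of 0.40.

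These counts depended on single libraries of every genotype. How many of all genes were called without a library is not given here. The counts below thus do not show whether members moved more than other genes. Atp5b stood at 1014 and 755 CPM in the 2 WT libraries, 631 and 583 CPM in AAB and 505 and 432 CPM in BBA. Without WT replicate 2 the count of WT over BBA rose from 1 to 37 and that of WT over AAB from 0 to 34, and without WT replicate 1 they were 2 and 0. Without any 1 of the AAB or BBA libraries no member was called in WT over BBA. WT replicate 1 held 663 CPM of 5 NK cell markers against 281 CPM in replicate 2 and 256 to 332 CPM in the other genotypes, and 662 CPM of 7 myeloid markers against 71 to 359 CPM. Xist, the transcript that silences the female X chromosome, was at 2.70 and 2.46 CPM in WT, at 811 and 1.74 CPM in AAB and at 724 and 1.96 CPM in BBA. With a term for sex in the fit no member was called in WT over BBA, down from 1. The part of the markers in the result was not tested.

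**Figure D3:**
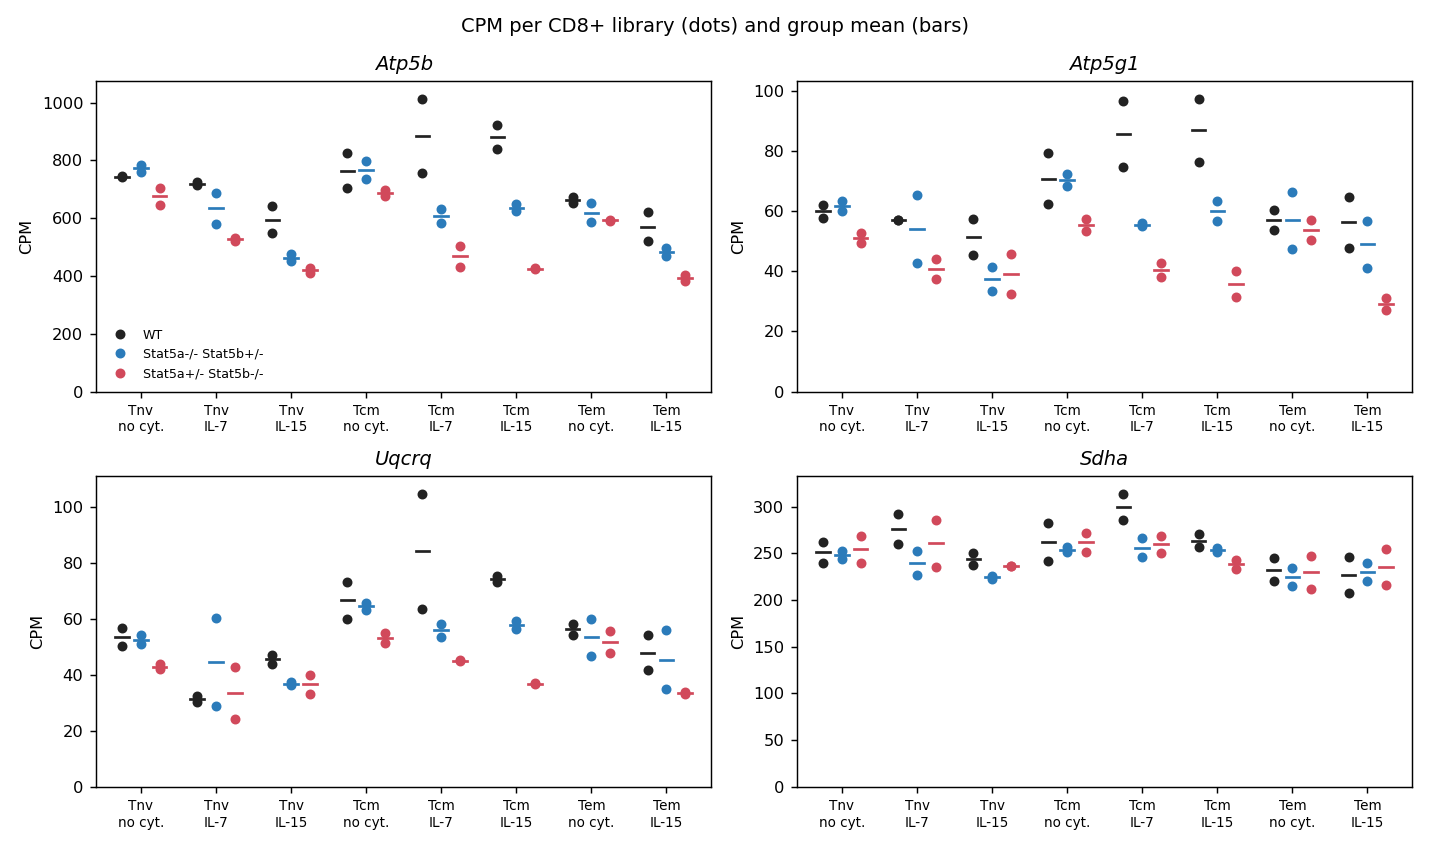
CPM (y axes, from 0) of Atp5b, Atp5g1, Uqcrq and Sdha in each CD8+ library (dots, coloured by genotype) by cell state and culture (x axes), with group means as bars. Atp5b, Atp5g1 and Uqcrq separate the genotypes in Tcm with IL-15, and Sdha stays between 208 and 314 CPM in all libraries.

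Without cytokine the genotypes gave no called member in any cell state with edgeR or DESeq2. In Tcm WT over BBA the median log2 fold change was 0.23, with 1 member at an unadjusted p under 0.05 (9.6% of all genes) and 0.287% of all genes called. In Tnv it was 0.18, with 16 members at an unadjusted p under 0.05 (22.8% of all genes) and 2.78% of genes called, the lowest adjusted p being that of Ndufa2 (0.059). In Tem it was -0.02, with 0 members at an unadjusted p under 0.05 (10.8% of all genes) and 0.207% of genes called. WT over AAB gave medians of 0.03 in Tcm, 0.00 in Tnv and 0.02 in Tem. At an unadjusted p under 0.05 it held 0 members in Tcm (3.83% of all genes, 0.0411% called), 1 in Tnv (7.79%, 0.166% called) and 0 in Tem (8.03%, 0.0197% called).

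In Tem with IL-15 most members leaned towards WT over BBA by small amounts, with few calls. Of the 74 tested, 68 lay above 0 and 6 below, with a median of 0.24 (log2) against -0.02 for all genes. The libraries of WT and BBA overlapped in most members, with WT apart and higher in 29 and lower in 1. Atp5b and Atp5g1, given next, were among the genes that moved most in Tcm with IL-15 and do not stand for all members. Atp5b stood at 621 and 520 CPM in WT, 498 and 470 CPM in AAB and 403 and 384 CPM in BBA, and Atp5g1 at 64.8 and 47.8 CPM in WT, 56.8 and 41.0 CPM in AAB and 31.2 and 27.1 CPM in BBA. WT and BBA did not overlap for either gene. Their log2 fold changes of WT over BBA were 0.52 (adjusted p = 0.0992) and 0.93 (adjusted p = 0.106), so 0 members were called with edgeR, where 1.79% of all genes were, and 7 had an unadjusted p under 0.05 (18% of all genes). DESeq2 called 1, Atp5g1. Replicate numbers paired these libraries, and with them as a block 3 members were called: Atp5g1, Ndufb7 and Uqcr11. The 1.79% belongs to the fit without the block, and no share of all genes under the block is given here. WT over AAB gave 0 members by either tool (0.019% of all genes), 0 at an unadjusted p under 0.05 (7.35%) and a median of -0.08.

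In naive CD8+ cells with cytokine the genotypes gave no called member with the filter on low counts. With IL-15, WT over BBA called 0 members by edgeR or DESeq2 while 9.43% of all genes were called, 1 member had an unadjusted p under 0.05 (22.5% of all genes), and the median was -0.05. Atp5b stood at 642 and 547 CPM in WT and 411 and 427 CPM in BBA in this culture (log2 0.47, adjusted p = 0.107, edgeR). One of these WT libraries is the replicate with Cd4 counts. With IL-7, WT over BBA called 0 members by either tool (2.69% of all genes, with 4 members and 18.1% of genes at an unadjusted p under 0.05 and a median of 0.09), with Atp5b at 714 and 724 CPM in WT and 531 and 523 CPM in BBA. WT over AAB called 0 by either tool with IL-15 (0.893% of genes, with 0 members and 14.1% of genes at an unadjusted p under 0.05) and with IL-7 (0.257%, with 2 members and 9.62% of genes).

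Naive CD4+ cells called 0 members by edgeR or DESeq2 in all 4 genotype comparisons. With IL-7, WT over BBA had 22 members at an unadjusted p under 0.05 (27.4% of all genes) and a median of 0.14, where 5.55% of all genes were called, and 3 were higher by adjusted p under the fold limit (6.37% of all genes). Of these, Ndufa3 stood at 40.4, 43.3 and 39.2 CPM in WT and 30.5, 31.6 and 28.4 CPM in BBA (log2 0.44, adjusted p = 0.018, edgeR). The groups did not overlap for this gene. The others were Ndufb8 (0.30) and Atp5d (0.33). Without cytokine WT over BBA had 1 member at an unadjusted p under 0.05 (9.86% of all genes, 1.13% called, median 0.09). WT over AAB had 1 without cytokine (8.04%, 0.373% called, median 0.02) and 2 with IL-7 (11.5%, 0.627% called, median 0.03).

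**Figure D4:**
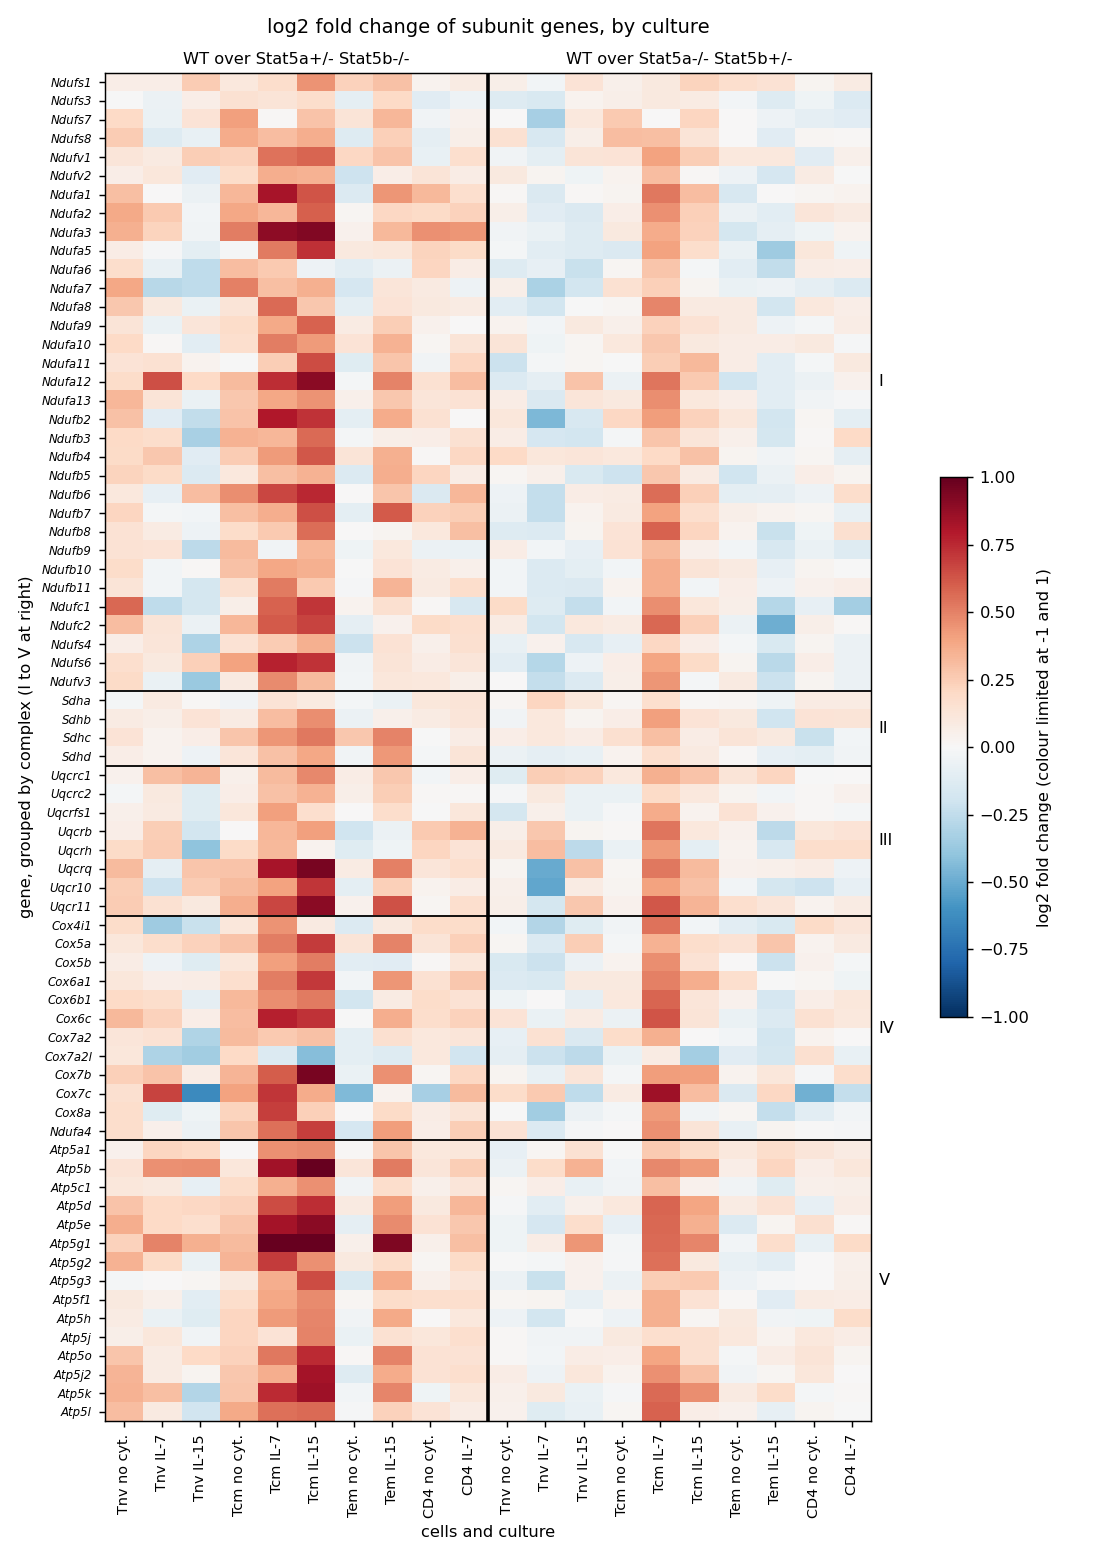
log2 fold change (colour, limited at -1 and 1) of the subunits tested and shown (rows, by complex) in each cell state and culture (columns), for WT over Stat5a+/- Stat5b-/- at left and WT over Stat5a-/- Stat5b+/- at right. The deepest red columns are Tcm with IL-7 or IL-15 at left, where Atp5g1 reached 1.01 and 1.23, and Tcm with IL-7 is the reddest column at right.

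The response to IL-15, taken as IL-15 over no cytokine, was compared between genotypes in Tcm. Cells with cytokine were cultured overnight. The study's methods describe cells without cytokine as taken directly ex vivo, and the labels as cultured. If ex vivo, effects of IL-15 and of the culture cannot be told apart. This holds for every cytokine response below. In WT cells IL-15 over no cytokine called 1 member, Cox7a2l, which fell from 454 and 346 CPM to 240 and 245 CPM (log2 -0.71 ± 0.12, adjusted p = 0.00493, edgeR), where 8.65% of all genes were called. At an unadjusted p under 0.05 it had 5 members (27.9% of all genes). Cox7a2l was not called when only WT libraries were fitted. In BBA cells 2 members fell, where 8.98% of all genes were called, and 12 had an unadjusted p under 0.05 (30% of all genes). Atp5b went from 698 and 676 CPM to 427 and 423 CPM (-0.67 ± 0.10, adjusted p = 0.00371) and Atp5g1 from 57.2 and 53.5 CPM to 40.0 and 31.3 CPM (-0.61 ± 0.17, adjusted p = 0.0366). In WT the same genes went from 826 and 703 CPM to 921 and 840 CPM, and from 79.3 and 62.2 CPM to 97.4 and 76.3 CPM. For Atp5b the IL-15 libraries lay above the others, and for Atp5g1 the cultures overlapped.

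The difference of these responses, WT minus BBA, was called for 3 members, where 5.24% of all genes were called higher and 7.79% in either direction, and 13 had an unadjusted p under 0.05 (23.5% of all genes). It was 0.93 ± 0.23 for Atp5g1 (adjusted p = 0.0379), 0.89 ± 0.15 for Atp5b (adjusted p = 0.00692) and 0.68 ± 0.14 for Uqcrq (adjusted p = 0.0202), all on the log2 scale with edgeR. The median over the members was 0.30. Uqcrq itself went from 73.1 and 60.0 CPM to 75.1 and 72.9 CPM in WT and from 55.0 and 51.3 CPM to 36.5 and 36.9 CPM in BBA.

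Blocking on the replicate number, which paired these libraries, raised the count from 3 to 9, the further ones being Atp5e, Cox7b, Ndufa11, Ndufa12 and Ndufa5, higher, and Cox7a2l, lower. How many of all genes the block called is not given here. The count was 9 without WT replicate 1 of the cells with no cytokine. It was 1 without WT replicate 1 with IL-15, without BBA replicate 2 with IL-15 or without BBA replicate 1 with no cytokine, and it was 2 without any other library, of which 1 was lower when WT replicate 2 with no cytokine was left out.

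Other cytokine responses called few members. In the IL-7 responses of WT cells the cultures also differ in sex by Xist, which stood at 948 and 1076 CPM in Tnv and 845 and 1250 CPM in Tcm without cytokine and at 2.21 and 5.33 CPM and 2.70 and 2.46 CPM with IL-7. In Tnv the 2 cannot be told apart, since all libraries with IL-7 were low and all without it high. IL-7 in WT Tcm called 0 members (edgeR and DESeq2, 6 at an unadjusted p under 0.05 against 14.8% of all genes, 0.265% called), with a median log2 fold change of 0.26, which was 0.21 with a term for sex, estimated from the AAB and BBA libraries. IL-15 in WT Tem called 0 (both tools, 0 at an unadjusted p under 0.05 against 15%, 1.59% called). In WT Tnv IL-15 called 0 (both tools, 3 at an unadjusted p under 0.05 against 25.8%, 6.36% called), and IL-7 called 1, Cox4i1, which went from 264 and 239 CPM to 151 and 151 CPM (-0.74 ± 0.24, adjusted p = 0.0373, edgeR), where 19.6% of all genes were called, with 14 members at an unadjusted p under 0.05 (42.8% of all genes). The count was 0 without WT replicate 2 with no cytokine, without either WT library with IL-7 or without any 1 AAB or BBA library with no cytokine, and 3 or 4 without any 1 AAB or BBA library with IL-7. Across the genotypes Cox4i1 with IL-7 was uneven in Tnv, at 229 and 142 CPM in AAB and 238 and 150 CPM in BBA, so replicate 1 of each deficient genotype stood above its replicate 2 and above both WT libraries.

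In BBA Tnv IL-15 called 3 members, where 20.2% of all genes were called (9 at an unadjusted p under 0.05, 42.2% of all genes). Atp5b fell from 706 and 646 CPM to 411 and 427 CPM (-0.63 ± 0.11, adjusted p = 0.00186, edgeR), and Ndufa6 and Ndufa7 rose by 0.59 each. Neither rise was called by DESeq2, with its size factors in edgeR or without the filter on low counts, and with a replicate block that of Ndufa7 alone was. The count was 1 without any 1 of 6 libraries: either WT and either AAB library with no cytokine, BBA replicate 2 with no cytokine or AAB replicate 1 with IL-15. It was also 1 without WT replicate 2 with IL-15, the one with Cd4 counts, and it was 9 without BBA replicate 2 with IL-15. Without BBA replicate 1 with no cytokine Atp5b was not called. Without BBA replicate 1 with IL-15 the count stayed at 3, all lower, so neither rise was called. For Ndufa6 the groups, at 61.7 and 53.4 CPM and 93.8 and 72.3 CPM, did not overlap. WT and BBA Tnv gave no member whose response differed past both limits (0 by edgeR and DESeq2, 5 at an unadjusted p under 0.05 against 18.8% of all genes, 2.42% called). The WT values with IL-15 include the replicate with Cd4 counts.

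In CD4+ cells the members that passed the adjusted p with IL-7 mostly fell, by less than the fold limit. In WT 0 members passed the fold limit (edgeR and DESeq2, 20 at an unadjusted p under 0.05 against 45.8% of all genes), where 16.3% of all genes were called. By adjusted p alone 6 fell (17.7% of all genes) and 2 rose (18.4%), among them Atp5e (-0.35) and Uqcrq (-0.34). In BBA 1 was called, Atp5s, a coupling factor outside the complex (1.12 ± 0.30, adjusted p = 0.0149, edgeR), where 13.6% of all genes were called and 23 members had an unadjusted p under 0.05 (41.3%). By adjusted p alone 13 fell (14.4% of all genes) and 3 rose (14.7%). Atp5g1 in BBA went from 44.0 and 46.1 CPM to 33.6, 33.1 and 26.4 CPM (-0.54, adjusted p = 0.00866). No member's response differed between WT and BBA past both limits (0 by edgeR and DESeq2, 3 at an unadjusted p under 0.05 against 10.6% of all genes, 1.11% called).

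Cell state called no member. In WT cells without cytokine Tcm over Tnv called 0 members (edgeR and DESeq2, 3 at an unadjusted p under 0.05 against 15.7% of all genes, 3.42% called) with a median log2 fold change of 0.24, and 72 of the 74 members lay above 0. Tem over Tcm called 0 (both tools, 7 at an unadjusted p under 0.05 against 14.9%, 2.26% called) with a median of -0.23, and 73 of 74 lay below 0. Both medians rest on the same pair of Tcm libraries, of which replicate 1 held 8870 CPM of subunit transcripts and replicate 2 held 6624 CPM, against 6598 to 7140 CPM in Tnv and 6111 to 7007 CPM in Tem. Replicate 2 lay inside the range of the other states.

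In the libraries with CA-STAT5A Stat5a itself was higher and the test called no subunit. Stat5a stood at 60.0 and 61.0 CPM with CA-STAT5A and at 8.45 and 3.22 CPM with the empty vector. CA-STAT5A over empty vector called 0 members (edgeR and DESeq2, 1 at an unadjusted p under 0.05 against 20.5% of all genes), where 6.76% of all genes were called, with a median of -0.06. Atp5b stood at 515 and 539 CPM against 583 and 561 CPM, and Atp5g1 at 36.4 and 38.7 CPM against 48.9 and 43.3 CPM, without overlap in either gene. Of the 7 myeloid markers Itgam, an integrin that other leukocytes also carry, stood at 1271 and 1123 CPM with CA-STAT5A and 291 and 314 CPM without. The other 6 were lower with CA-STAT5A, among them Lyz2 at 22.6 and 23.6 against 200 and 89.1 CPM. The part of these cells in the result was not tested.

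Neighbouring lists of mitochondrial genes were counted in Tcm with IL-15, WT over BBA, where 11.8% of all genes were called higher. Of 17 electron carriers and subunits with other names 5 were called higher and 0 lower (edgeR, with 9 at an unadjusted p under 0.05), with a median log2 fold change of 0.52: Ndufab1 (0.91), Cycs, cytochrome c (0.90), Usmg5 (0.65), and Pdss1 (0.78) and Coq7 (1.07), of ubiquinone synthesis. Coq7 was near the floor. It did not pass the filter on low counts in the fit of the Tcm response to IL-15, so its value is uncertain. Of 17 citric acid cycle genes 6 were called higher, among them Suclg2 at 1.01 and Idh3a at 0.91, with a median of 0.37. Of 42 assembly factors 6 were called higher, led by Uqcc2 (1.61) and Ndufaf4 (1.45), and 1 lower, Acad9 (-0.89), with a median of 0.19, so the share called higher was near that of all genes. The all-gene median was -0.02.

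Among 13 regulators of mitochondrial genes 2 were called higher, also a share near the 11.8% of all genes. Myc, the growth factor-induced transcription factor, stood at 389 and 445 CPM in WT, 141 and 171 CPM in AAB and 69.3 and 86.5 CPM in BBA (log2 2.36). Pprc1, a coactivator of the PGC-1 family, gave 1.68. In WT over AAB these 2 were the called genes in the 4 lists, where 2.55% of all genes were called higher, and in AAB over BBA 3 assembly factors and 2 regulators were called, where 3.16% were. Of 3 proliferation genes tested in WT over BBA 0 were called (edgeR, 2 at an unadjusted p under 0.05). Myc also fell from WT to AAB to BBA in Tnv with IL-15 (389 and 302, 75.1 and 104, and 49.3 and 62.1 CPM). In Tem with IL-15 it stood at 222 and 209, 71.9 and 74.1, and 26.5 and 39.9 CPM. In the main edgeR fit no member was called in WT over BBA in either of these 2 cultures. A replicate block called Atp5g1, Ndufb7 and Uqcr11 in Tem, and without the filter on low counts both cultures had calls. Any link between Myc and the subunit genes was not tested.

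Transcript length and shared sequence were set beside the calls. By merged exon length, 9 of 17 members under 1000 bases were called higher in WT Tcm with IL-15 than in BBA, 8 of 28 from 1000 to under 2000, 5 of 18 from 2000 to under 4000 and 4 of 10 at 4000 or more, with medians of 0.63, 0.46, 0.48 and 0.53 on the log2 scale. The medians of other genes in these classes were 0.11, 0.13, 0.04 and -0.07. Of the 26 called members, 4 had over 20% of their 50-base words in other genes (Ndufa12, Ndufb6, Cox5a and Atp5o), so that their counts are uncertain, and 22 did not. By the gene record used for Atp5o, which lies apart from its RefSeq promoter, 89.8% of its words occur in other annotated genes, 49.5% in Donson. Atp5b (chr10:128083273-128090391) shares 0.857%, Atp5g1 (chr11:96068852-96075670) 11.1% and Uqcrq (chr11:53427922-53430831) 0%.

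The motifs were found in called and uncalled members. Of the 23 called members with a promoter, CACGTG was in 2 (Atp5g1, in the stretch shown above, and Atp5g3, farther from its start), against 5 of 40 tested and not called. The NRF1 site was in 5 against 11, CCGGAAGT in 1 (Uqcr11) against 4, and TTCNNNGAA in 3 (Atp5d, Atp5o and Ndufb6) against 2.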

How the data were processed

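Poly(A) RNA of sorted T cells was sequenced as single-end reads of 50 bp. The authors aligned reads with TopHat2 and deposited raw counts per gene from htseq-count. The study's methods name mm10, the submitters' processing notes mm9 (with TopHat2, Cufflinks and HTSeq). Whether cells without cytokine were cultured (labels) or taken directly ex vivo (study's methods) is unclear. Cytokines were used at 10 ng/ml. Of 69 samples 67 were used, and 2 CD4+ libraries whose title and treatment label differ were left out.

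Counts were tested with edgeR 4.0.16 (quasi-likelihood F-test, TMM) in R 4.3.3, after a Jaccard filter on low counts (100 thresholds from 1 to 200), over all genes. A call needed more than 1.5-fold and a Benjamini-Hochberg adjusted p under 0.05. Fold changes are log2, and SE is the size of the log2 fold change divided by the square root of F. The count floor was not needed for any printed fold. CPM use TMM-scaled library sizes after the filter, and their ratios exceed fitted values by a median of 0.056 (log2) in Tcm with IL-15. Alternatives were DESeq2 1.42.0, its size factors, no filter, no fold limit, a replicate block and leaving out each replicate. A sex term for Tcm with IL-7, and for its response, was chosen after seeing the data. Members and lists were chosen with earlier results of these data known. Full values were given for at most 4 called members per direction with the largest change and a mean of 50 counts or more, the c-ring genes, complex II and isoform pairs, and further genes named were chosen after their values were seen. Some genes enter the counts and medians but are not reported here by name or in the figures.

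Same-numbered libraries deviated together (every correlation of deviations over 0.1) within Tcm with IL-15 (0.317 to 0.414), Tem with IL-15 (0.685 to 0.796) and the Tcm response to IL-15 (0.31 to 0.651), and also in Tnv with IL-7, in Tcm and Tem without cytokine and in the Tem response, so numbers were taken as pairs there. In all 38 replicate pairs counts differed beyond sampling noise (chi-square over its degrees of freedom at least 5.5). Simulated counts for WT over BBA in Tcm with IL-15 (10430 genes) were scored by adjusted p alone, without the fold limit. There 45.5% of 1.5-fold, 87.3% of 2-fold and 98.6% of 3-fold changes were recovered. Of the genes that passed, 11.6% were false (20 genes), above the 0.05 limit on the adjusted p. These rates do not describe calls with the fold limit. The simulation changed 66, 63 and 69 genes at these folds, fewer than the data called, so its false share does not carry over.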

Additional observations from a re-analysis of the deposited data

Results flagged for a closer look

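The response of Tcm to IL-15 differed between WT and BBA cells in 3 of 74 members by the test of the difference itself (edgeR quasi-likelihood interaction term). This share was below that of all genes called higher in the same test, given above. The log2 difference of responses, WT minus BBA, was 0.93 for Atp5g1, 0.89 for Atp5b and 0.68 for Uqcrq. Groups held 2 or 3 libraries, so no group was tested for a library far from the others.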

How the results depend on the processing

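Without the fold limit the members called were 45 for WT over BBA, 3 for WT over AAB and 9 for AAB over BBA in Tcm with IL-15, 3 for WT over BBA in CD4+ cells with IL-7, 6 for the WT Tnv response to IL-7, 5 for the BBA Tnv response to IL-15, 2 and 5 for the WT and BBA Tcm responses to IL-15, 8 and 16 for the WT and BBA CD4+ responses to IL-7, and 1 for Tem over Tcm. Without the filter they were 58 (WT over BBA) and 26 (AAB over BBA) in Tcm with IL-15, 27 (WT over BBA) and 1 (WT over AAB) in Tcm with IL-7, 1 and 5 for WT over BBA in Tnv with IL-7 and IL-15, 1 in Tem with IL-15, 4 for the WT Tnv response to IL-7, 1 for the BBA Tnv response and 8 for the BBA Tcm response to IL-15, and 6 for the Tcm difference of responses. In that setting the median of all genes was -0.463, -0.209 and -0.259 (log2) in the first 3 of these. DESeq2 called 11 (WT over BBA) and 1 (WT over AAB) in Tcm with IL-7, 1 in Tem with IL-15, 3 for the WT Tnv response to IL-7 and 1 for the BBA Tnv response to IL-15, and DESeq2's size factors in edgeR also called 1 there. A fit of WT alone called 3 for the WT Tnv response to IL-7 and 0 for the WT Tcm response to IL-15. The sex term, chosen after seeing the data, called 0 in WT over BBA in Tcm with IL-7. The cause of these changes was not tested. Without the share of all genes under each setting, the counts do not show whether members moved more than other genes.

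With a replicate block the counts were 6 for AAB over BBA in Tcm with IL-15, 3 for WT over BBA in Tem with IL-15 and 9 for the Tcm difference of responses, where the numbers paired the libraries. Where they did not, the block gave 2 for the WT Tnv response to IL-7 and 1 for the Tnv difference of responses. It left every other count within 1.5 times. No paired analysis was possible because the labels of the retrovirus groups share only 1 replicate number, 1 control library having none.

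Leaving out 1 replicate at a time gave 10 to 42 for WT over BBA and 0 to 4 for AAB over BBA in Tcm with IL-15, 0 to 37 for WT over BBA and 0 to 34 for WT over AAB in Tcm with IL-7, 1 to 9 for the Tcm difference of responses, 0 to 2 and 1 to 2 for the WT and BBA Tcm responses to IL-15, 0 to 4 for the WT Tnv response to IL-7, 1 to 9 for the BBA Tnv response to IL-15, 0 to 2 for the Tnv difference of responses, 0 to 2 and 1 to 2 for the WT and BBA CD4+ responses to IL-7, 0 to 1 for Tem over Tcm, and 0 in the comparisons not named here. A group left with 1 library was assumed to vary like the others. The share of all genes called without a library is not given here. In simulated counts, scored by adjusted p alone, the Tcm difference of responses recovered 3.57% of 1.5-fold and 34.7% of 2-fold changes. Small differences of response were thus not detectable at this depth and number of libraries.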

Other observations

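Over the 48 CD8+ libraries, the genes outside the set whose log2 CPM followed the summed subunit CPM most closely were Slc25a4, the ADP/ATP carrier of the inner membrane (Pearson r = 0.948), Sec61b (0.934), Snrpg (0.932), Shfm1 (0.93) and Rpl22 (0.925), among 10202 genes compared. These are descriptions over libraries that share groups and scaling.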
